A study of Mus musculus with 4 samples.

Results

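The genes described here encode the proteins of the 3 cell-cell junctions that join colon epithelial cells: tight junctions, adherens junctions and desmosomes. They were chosen by symbol and number 31 of the 18161 genes that the arrays measure through probe sets with a single annotated gene. For each gene the brightest probe set over the 4 arrays was used. The samples were colon epithelium of 4 mice, each measured on its own array. The 2 Cre-positive mice carried Stat3 alleles flanked by loxP sites (Stat3flfl) and a Cre recombinase under the promoter of villin, a gene of the intestinal epithelium. The 2 Cre-negative mice carried the same floxed alleles without Cre. All 4 mice drank 2.5% dextran sodium sulphate (DSS), which injures the colon epithelium, for 5 days. Untreated mice were not analysed here. The labels used here state neither the ages of the mice nor how the epithelium was isolated.

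Tight junctions close the space between neighbouring cells near their apical end. Claudins form the strands, some of them sealing the space and others leaving channels for small ions and water, and ZO proteins tie the strands to actin. Adherens junctions hold cells together through cadherins that bind catenins and actin. Desmosomes do so through desmosomal cadherins that bind, by way of armadillo proteins and plakins, to keratin filaments. In colitis the claudin composition of the colon epithelium is known to shift, and STAT3 is a transcription factor that acts downstream of cytokines such as interleukin 22 in these cells.

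All values are log2 intensities after the authors' GC-RMA normalization. This method subtracts probe background and makes arrays comparable, and it compresses genes without signal into a narrow low range. A value at or below its array's median over all probe sets (log2 3.19 to 3.24) is said here to be at the floor. Levels of different probe sets are not comparable with each other. A difference is Cre-positive minus Cre-negative, in log2 units, with its moderated standard error (SE) and 95% interval from limma, two-sided. Adjusted p-values are Benjamini-Hochberg values over the 12649 genes that passed a filter on dim genes, and 30 of the 31 junction genes passed it.

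The arrays correlated with each other at 0.981 to 0.994 over all genes tested, and Cre-positive mouse 1 correlated least with the other 3 (0.981 to 0.987). Stat3 measured log2 9.28 and 8.16 in the Cre-positive mice, against 10.46 and 10.50 in the Cre-negative mice, a difference of -1.75 (SE 0.43, limma adjusted p = 0.331). The labels do not say whether Cre removes the stretch that this probe set reads. Epithelial markers were present: 10 of 10 lay above the floor, and their summed intensity was 167100 and 142900 in Cre-positive mice 1 and 2, against 139400 and 140900 in the Cre-negative mice. The 7 endothelial markers lay at the floor in every array, as did 5 of 6 smooth muscle markers and 5 of 7 fibroblast markers. The exceptions were Myh11, Col3a1 and Pdgfrb. Of the 10 leukocyte markers, 8 lay above it in at least 1 array, with summed intensities of 2115 and 1933 in the Cre-positive mice, against 2061 and 2102 in the Cre-negative mice. Cd14 made up most of that sum and was lower in both Cre-positive mice. Ptprc, the leukocyte marker CD45, measured log2 8.31 and 8.24 in the Cre-positive mice, against 7.19 and 7.40 in the Cre-negative mice, a difference of 0.98 (unadjusted p = 0.00483, limma adjusted p = 0.243), and the T cell marker Cd3e was also higher in both (difference 0.42). The other T cell marker of that list, Cd3g, overlapped between groups, at log2 6.28 and 7.50 against 5.99 and 6.69 in the Cre-negative mice. Cd52, Csf1r and Adgre1 overlapped too, and Ms4a1 was lower in both Cre-positive mice. The part of leukocytes in the junction gene values was not tested. The neutrophil markers on the array summed to 1556 in Cre-positive mouse 1 and 74.6 in Cre-positive mouse 2, against 121 and 68.2 in the Cre-negative mice. S100a8 and S100a9 carried that sum, at log2 9.70 and 9.46 in Cre-positive mouse 1 and no higher than 5.91 in any other array. Of the other neutrophil markers on the array, Csf3r lay near the floor with overlapping groups (log2 3.38 to 3.49), and Cxcr2 lay at the floor. In RNA from whole epithelium, fewer cells of a type and less RNA per cell cannot be told apart.

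No junction gene passed the threshold of 0.05 after adjustment: limma called 0 of 30, with a smallest adjusted p of 0.377, and it called 0 of 12649 genes tested (percent called 0). At an unadjusted p under 0.05, 2 junction genes were higher in the Cre-positive mice, Cgn and Tjp1, where the background over all genes tested was 2.55%. Cldn1 was the 1 junction gene at that level among the lower ones, where the background was 8.51%, and it lay at the floor in all arrays. With 2 mice in each group the smallest two-sided p of an exact permutation test is 0.333. The order of the genes below is therefore a description of these 4 mice.

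By group means, 22 of the 30 junction genes were higher in the Cre-positive mice, against 38.5% of all genes tested. Most junction genes are bright, and among genes above the 60th percentile of intensity 22 of 29 were higher, against 44.0% of all genes at that brightness. The median difference of the 30 genes was 0.19, against -0.05 over all genes tested. In 12 of the 30 both Cre-positive mice lay above both Cre-negative mice, where 13.5% of all genes tested did so (16.5% above the 60th percentile). In 7 of the 30 both lay below, where 34.7% did so (24.8% above the 60th percentile, where 6 of 29 junction genes did). The remaining 11 overlapped. The count of higher means and the median depended on 1 mouse. Without Cre-positive mouse 1, 14 of 30 had a higher mean, against 40.5% of all genes tested. The median was then -0.03, against -0.04 over all genes. Genes without overlap stay so when a mouse is left out, so the counts of 12 and 7 were not checked in this way.

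**Figure D1:**
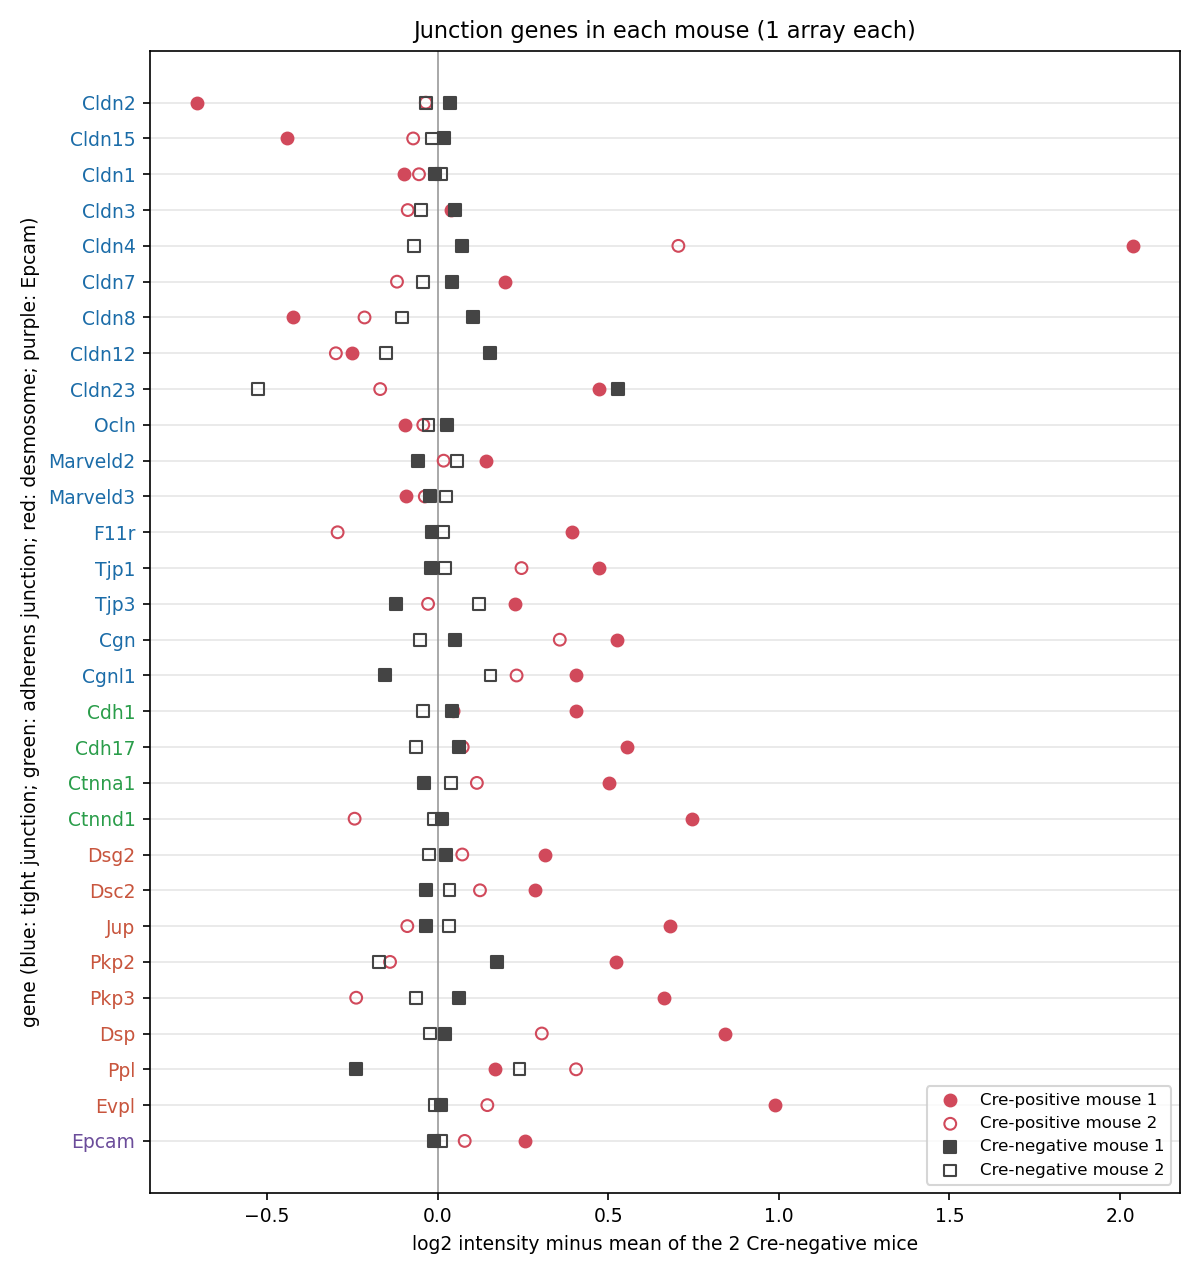
Log2 intensity of each of the 30 tested junction genes in the 4 arrays, as the difference from the mean of the 2 Cre-negative mice (horizontal axis, log2), with 1 row for each gene. Filled circles are Cre-positive mouse 1, open circles Cre-positive mouse 2, and squares the Cre-negative mice. Cldn4 lies farthest to the right at 2.04 and 0.71, and every adherens junction and desmosome gene has its Cre-positive mouse 1 value to the right of 0.

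Cldn4, one of the sealing claudins, had the largest difference of any junction gene. It measured log2 10.74 and 9.41 in the Cre-positive mice, against 8.77 and 8.63 in the Cre-negative mice. Both Cre-positive mice lay above both Cre-negative mice, and mouse 1 was the higher of the pair. The difference of 1.37 (SE 0.51, 95% interval -0.11 to 2.86) is 2.59-fold and did not pass (limma adjusted p = 0.476). It was 0.71 without Cre-positive mouse 1 and 2.04 without Cre-positive mouse 2. The authors' deposited table gives the same probe set an absolute fold of 2.59 and a p of 0.177. A single probe set measures this gene here.

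Cldn3, the neighbour of Cldn4 on chromosome 5 with 0 annotated genes between them (RefSeq, GRCm38.p6), did not show this difference. It measured log2 13.70 and 13.57 in the Cre-positive mice, against 13.71 and 13.61 in the Cre-negative mice, and the groups overlapped. The difference was -0.02, with a 95% interval of -0.32 to 0.27. All 4 Cldn3 probe sets lay between -0.06 and 0.02. The brightest is of a kind that can also bind related transcripts. The promoters of this pair, from RefSeq, are shown because the genes are neighbours with unlike differences. The promoters of Cldn12 and Cldn7 are shown because they were the 2 junction genes, of the 19 with a promoter window, that held the STAT-type motif TTCNNNGAA. Each runs 5′ to 3′ along the gene's strand from 250 bases before to 50 bases after the annotated start, and capitals mark TTCNNNGAA and the GC box GGGCGG or its reverse complement CCGCCC.
Cldn4 (GRCm38.p6, chr5:134946885-134947184, minus strand): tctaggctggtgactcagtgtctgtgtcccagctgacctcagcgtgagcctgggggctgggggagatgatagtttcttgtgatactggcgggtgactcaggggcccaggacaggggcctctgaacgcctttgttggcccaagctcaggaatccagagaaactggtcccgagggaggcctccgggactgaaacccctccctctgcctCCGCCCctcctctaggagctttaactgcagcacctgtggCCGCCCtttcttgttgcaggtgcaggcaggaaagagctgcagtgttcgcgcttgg
Cldn3 (GRCm38.p6, chr5:134985964-134986263, plus strand): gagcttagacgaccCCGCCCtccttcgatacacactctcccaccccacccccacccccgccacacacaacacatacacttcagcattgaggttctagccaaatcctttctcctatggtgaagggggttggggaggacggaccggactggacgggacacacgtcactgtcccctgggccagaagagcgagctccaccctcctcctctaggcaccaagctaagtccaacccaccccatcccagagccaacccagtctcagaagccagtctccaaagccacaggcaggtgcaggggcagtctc
Cldn12 (GRCm38.p6, chr5:5514800-5515099, minus strand): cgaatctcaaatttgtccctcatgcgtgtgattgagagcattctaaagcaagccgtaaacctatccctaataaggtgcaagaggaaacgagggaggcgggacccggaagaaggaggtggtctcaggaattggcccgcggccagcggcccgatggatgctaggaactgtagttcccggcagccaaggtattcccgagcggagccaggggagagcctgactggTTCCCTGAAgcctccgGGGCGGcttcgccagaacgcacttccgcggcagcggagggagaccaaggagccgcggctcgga
Cldn7 (GRCm38.p6, chr11:69965171-69965470, plus strand): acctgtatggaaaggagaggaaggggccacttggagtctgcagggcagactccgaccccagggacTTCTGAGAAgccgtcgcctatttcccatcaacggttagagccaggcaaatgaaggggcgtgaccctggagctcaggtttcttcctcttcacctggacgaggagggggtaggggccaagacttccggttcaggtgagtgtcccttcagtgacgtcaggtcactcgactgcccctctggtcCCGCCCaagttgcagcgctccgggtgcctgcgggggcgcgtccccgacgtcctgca

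Promoter windows were available for 19 of the 31 junction genes, 26 windows in all. TTCNNNGAA, which reads the same on both strands, was found for 2 of the 19 genes, against 9.55% of all 27025 genes with a window, and in 3 of the 26 windows, against 8.30% of all 32851. In the windows shown, its letters were TTCCCTGAA in Cldn12, beginning 29 bases before the annotated start, and TTCTGAGAA in Cldn7, beginning 185 bases before. Cldn12 has 3 windows and Cldn7 has 2, and for each gene the first window that held the motif was shown. Not all of these windows held it. GGGCGG on either strand was found for 16 of the 19 genes, against 38.2% of all genes, and in 19 of the 26 windows, against 35.7% of all windows. The 27025 genes outnumber the 18161 on the arrays and were not matched to the junction genes in kind or expression. These shares therefore do not single out junction genes. No match of this kind shows a factor at the promoter, and the absence of one speaks only of these windows.

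Cldn12, a claudin that lacks the C-terminal motif through which others bind ZO proteins, lay lower in both Cre-positive mice. It measured log2 10.95 and 10.91 in them, against 11.36 and 11.05 in the Cre-negative mice. The difference of -0.27 (SE 0.14, 95% interval -0.68 to 0.13) did not pass (limma adjusted p = 0.536), and its other probe set gave -0.32. Cldn7, a basolateral claudin abundant in the gut, measured log2 14.20 and 13.89 in the Cre-positive mice, against 14.05 and 13.96 in the Cre-negative mice. Its groups overlapped, with a difference of 0.04 (95% interval -0.40 to 0.47). The 2 genes whose promoters held the STAT-type motif had differences of unlike sign, each with an interval that includes 0.

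The channel-forming claudins, Cldn2 and Cldn15, both lay lower in the Cre-positive mice, and mostly through mouse 1. Cldn2 encodes a channel for cations and water that is known to increase in colitis. It measured log2 12.12 and 12.79 in the Cre-positive mice, against 12.86 and 12.79 in the Cre-negative mice. Cre-positive mouse 2 was level with Cre-negative mouse 2. The difference was -0.37 (SE 0.26, 95% interval -1.14 to 0.40, limma adjusted p = 0.595), or -0.04 without Cre-positive mouse 1. The dimmer Cldn2 probe set measured 7.76 and 9.66 in the Cre-positive mice, against 9.08 and 9.85 in the Cre-negative mice, so that mouse 1 was again the low one and the groups overlapped. Cldn15, the other channel-forming claudin, measured log2 10.91 and 11.29 in the Cre-positive mice, against 11.37 and 11.34 in the Cre-negative mice. Its difference was -0.26 (SE 0.16, 95% interval -0.72 to 0.21, limma adjusted p = 0.568), and -0.07 without Cre-positive mouse 1.

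Among the remaining claudins, Cldn8 had the clearest lower values. Cldn8, a claudin of the distal gut and kidney tubule known to restrict sodium passage, measured log2 11.78 and 11.99 in the Cre-positive mice, against 12.31 and 12.10 in the Cre-negative mice. Its groups did not overlap, and the difference of -0.32 (SE 0.14, 95% interval -0.72 to 0.07) did not pass (limma adjusted p = 0.505). Leaving out any 1 mouse gave -0.43 to -0.21. Cldn23 measured log2 11.50 and 10.86 in the Cre-positive mice, against 11.56 and 10.50 in the Cre-negative mice. In both groups mouse 1 was the higher one, and the spread within the groups exceeded the difference of 0.15 (95% interval -1.21 to 1.52). Cldn1, a sealing claudin, measured log2 2.79 and 2.83 in the Cre-positive mice, against 2.88 and 2.90 in the Cre-negative mice. Cldn5, known for the seal of blood vessel walls, measured 2.26 and 2.26 in the Cre-positive mice, against 2.29 and 2.28 in the Cre-negative mice. Both lay at the floor throughout, so no size is given, and Cldn5 was the 1 junction gene that did not pass the filter. Over the 9 claudins tested, 3 had a higher mean and 6 a lower one, with a median of -0.08. Cldn1 is among the 6, and the median is its value at the floor, so it gives no size for the claudins.

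**Figure D2:**
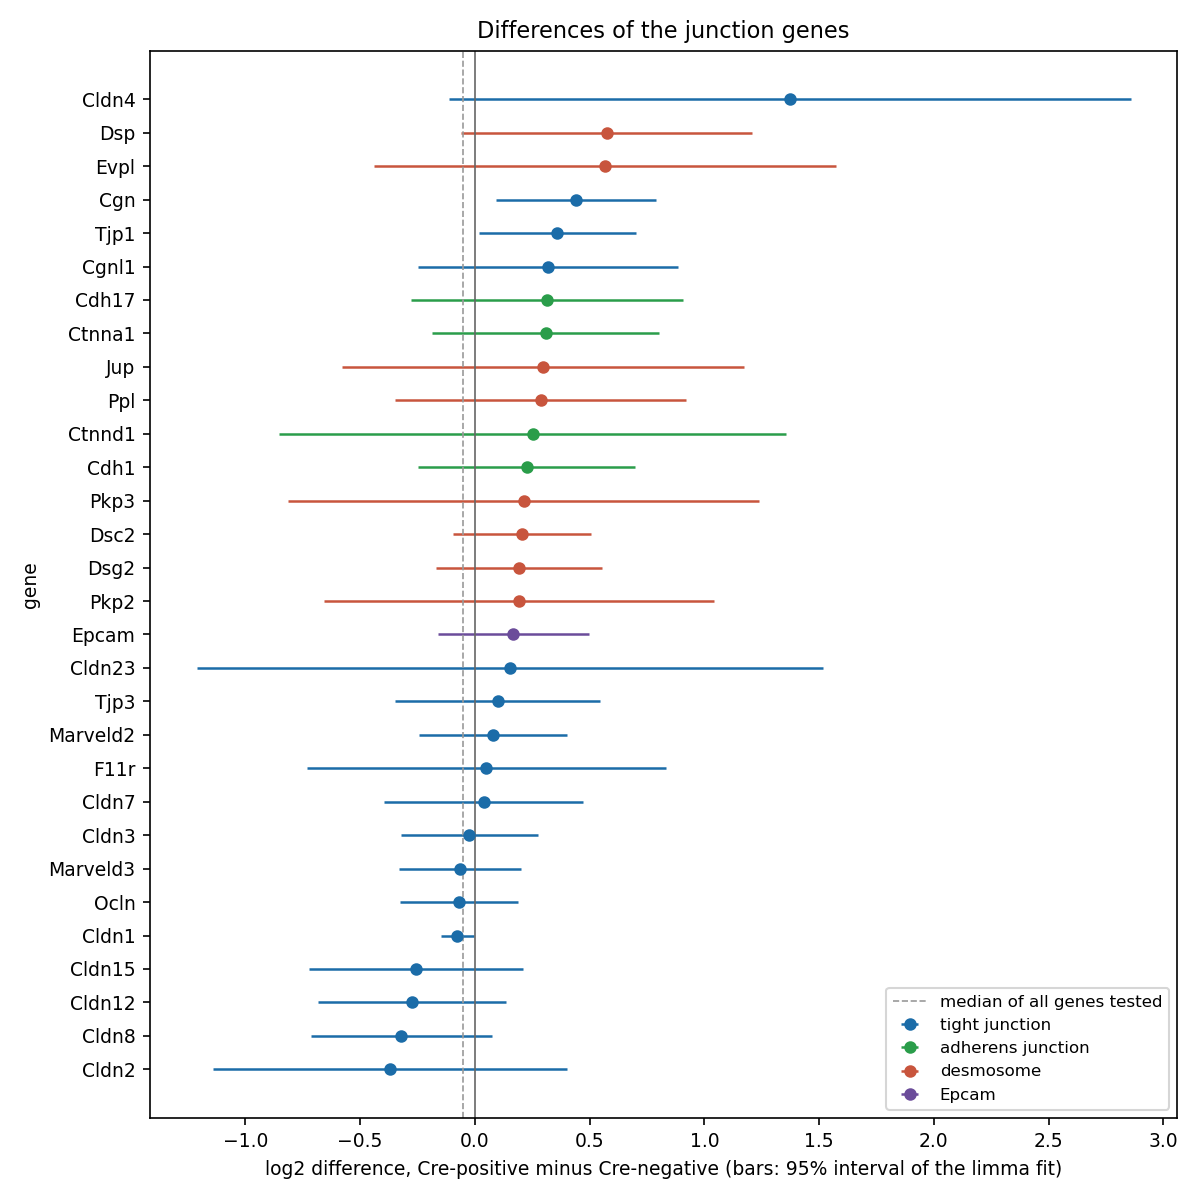
Difference of each tested junction gene, Cre-positive minus Cre-negative (horizontal axis, log2), with the 95% interval of the limma fit, ordered by size and coloured by junction. The intervals of Cgn, Tjp1 and, at the floor, Cldn1 leave out 0, and those of the other 27 genes include it; the dashed line is the median of all genes tested, -0.05.

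The other membrane proteins of the tight junction showed small differences. Occludin (Ocln) measured log2 10.45 and 10.50 in the Cre-positive mice, against 10.57 and 10.52 in the Cre-negative mice. Both Cre-positive values were the lower ones, by -0.07 on average (SE 0.09, 95% interval -0.33 to 0.19, limma adjusted p = 0.737), and its second probe set gave the same -0.07. Marveld2, or tricellulin, which sits where 3 cells meet, differed by 0.08 (95% interval -0.24 to 0.40), and its relative Marveld3 by -0.06 (95% interval -0.33 to 0.20). A second Marveld3 probe set gave -0.33, through a low value of log2 8.19 in Cre-positive mouse 2, against 8.98 in each Cre-negative mouse. F11r encodes the junctional adhesion molecule JAM-A. It measured log2 11.88 and 11.20 in the Cre-positive mice, against 11.48 and 11.51 in the Cre-negative mice. The Cre-positive mice thus lay on either side of the Cre-negative ones, and the mean difference of 0.05 (95% interval -0.73 to 0.83) hides opposite values.

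The cytoplasmic scaffolds of the tight junction lay higher. Cgn encodes cingulin, which links the junction to the actomyosin belt and to microtubules. It measured log2 9.74 and 9.58 in the Cre-positive mice, against 9.27 and 9.17 in the Cre-negative mice. Both Cre-positive mice lay above both Cre-negative mice and close to each other. The difference of 0.44 (SE 0.12, 95% interval 0.09 to 0.79) is 1.36-fold, with an unadjusted p of 0.026 and a limma adjusted p of 0.377. It stayed between 0.36 and 0.52 when any 1 mouse was left out. A dimmer Cgn probe set had the same order, with log2 4.89 and 4.63 in the Cre-positive mice, against 4.17 and 4.01 in the Cre-negative mice. The authors' deposited table gives Cgn a fold of 1.36 and a p of 0.0460.

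Tjp1, which encodes ZO-1, showed the same arrangement. It measured log2 11.63 and 11.41 in the Cre-positive mice, against 11.14 and 11.18 in the Cre-negative mice. The difference was 0.36 (SE 0.12, 95% interval 0.02 to 0.70), with an unadjusted p of 0.0437 and a limma adjusted p of 0.435, and it stayed between 0.25 and 0.47 when any 1 mouse was left out. Cgnl1, or paracingulin, measured log2 7.61 and 7.44 in the Cre-positive mice, against 7.05 and 7.36 in the Cre-negative mice, a difference of 0.32 (95% interval -0.25 to 0.88). Of its 2 other probe sets above the filter, 1 gave -0.0047 and 1 gave -0.20, so the direction rests on the brightest. Tjp3, which encodes ZO-3, overlapped between groups (difference 0.10, 95% interval -0.35 to 0.55). All 4 scaffolds had a higher mean.

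All 4 adherens junction genes had higher means in the Cre-positive mice, with a median of 0.28. Cdh1 encodes E-cadherin, the main cadherin of epithelia. It measured log2 14.31 and 13.95 in the Cre-positive mice, against 13.95 and 13.86 in the Cre-negative mice. Mouse 1 carried the difference of 0.23 (95% interval -0.25 to 0.70), since mouse 2 was nearly level with Cre-negative mouse 1. Cdh17, the liver-intestine cadherin, measured log2 13.39 and 12.91 in the Cre-positive mice, against 12.90 and 12.77 in the Cre-negative mice, a difference of 0.31 (95% interval -0.28 to 0.90). It too was nearly level between Cre-positive mouse 2 and Cre-negative mouse 1.

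Ctnna1 encodes alpha-catenin, which couples the cadherin complex to actin. It measured log2 14.05 and 13.66 in the Cre-positive mice, against 13.51 and 13.59 in the Cre-negative mice. The difference was 0.31 (SE 0.17, 95% interval -0.19 to 0.80, limma adjusted p = 0.551), and a second bright probe set gave 0.30. The brightest is, like that of Cldn3, of a kind that can also bind related transcripts. Another, much dimmer probe set of Ctnna1 measured log2 8.40 and 7.17 in the Cre-positive mice, against 5.74 and 4.07 in the Cre-negative mice. Its groups did not overlap and its difference was 2.88, far from that of the bright probe sets of the same gene. The labels and annotation used here do not say what part of the transcript this probe set reads. Ctnnd1 encodes p120 catenin, which keeps cadherins at the cell surface. It measured log2 11.30 and 10.31 in the Cre-positive mice, against 10.57 and 10.55 in the Cre-negative mice. Cre-positive mouse 1 was the highest and Cre-positive mouse 2 the lowest of the 4, so the difference of 0.25 (95% interval -0.85 to 1.36) describes neither mouse. A second Ctnnd1 probe set gave 0.28, with the same highest and lowest mouse. The dimmest measured log2 5.10 in Cre-positive mouse 1 and lay at the floor in the other arrays, so no size is given for it.

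**Figure D3:**
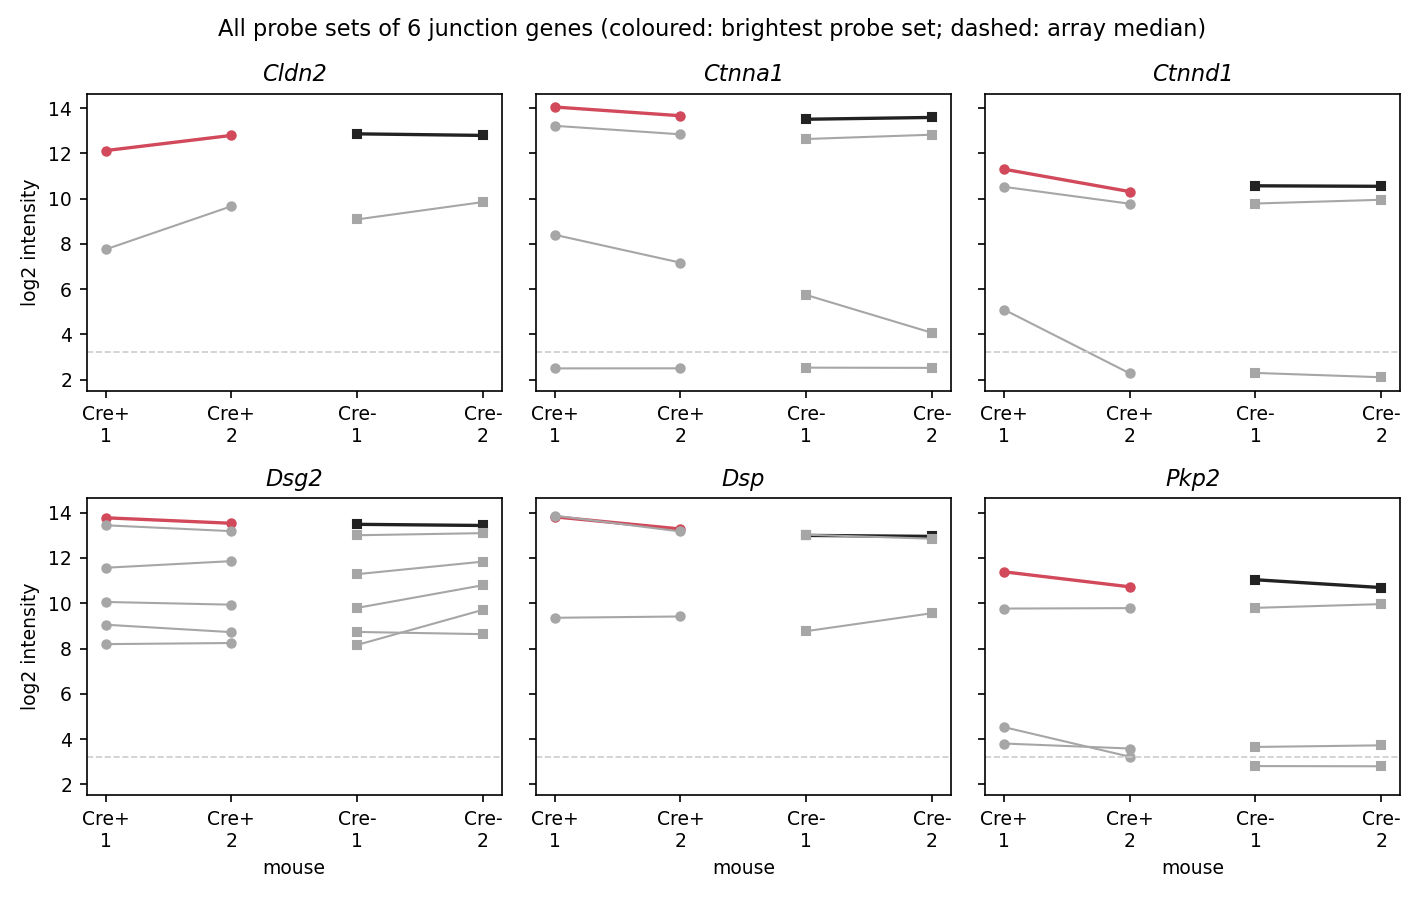
Log2 intensity (vertical axis) of every probe set of 6 junction genes in the 4 arrays, with lines joining the 2 arrays of a group. The brightest probe set is red in Cre-positive and black in Cre-negative mice, the others are grey, and the dashed line marks the array median. The dim Ctnna1 probe set at 8.40 and 7.17 in the Cre-positive mice, against 5.74 and 4.07 in the Cre-negative mice, separates more than the bright ones, and probe sets of Dsg2 run in both directions.

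The 8 desmosome genes likewise all had higher means, with a median of 0.25. Dsp encodes desmoplakin, the plakin that anchors keratin filaments. It measured log2 13.82 and 13.28 in the Cre-positive mice, against 13.00 and 12.95 in the Cre-negative mice. Both Cre-positive mice lay above both Cre-negative mice, and the difference of 0.57 (SE 0.22, 95% interval -0.06 to 1.21) is 1.49-fold and did not pass (limma adjusted p = 0.479). Its other 2 probe sets gave 0.58 and 0.22. In the latter, dimmer probe set the groups overlapped, and Cre-negative mouse 2 was the highest. Without Cre-positive mouse 1 the Dsp difference was 0.31, and without Cre-positive mouse 2 it was 0.84.

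The other plakins, envoplakin (Evpl) and periplakin (Ppl), are known best from stratified epithelium. Evpl measured log2 8.12 and 7.28 in the Cre-positive mice, against 7.14 and 7.12 in the Cre-negative mice, a difference of 0.57 (95% interval -0.44 to 1.57). Mouse 1 was the high one, and the difference was 0.15 without it. Ppl measured log2 5.06 and 5.30 in the Cre-positive mice, against 4.66 and 5.14 in the Cre-negative mice. Its groups overlapped. By brightest probe sets, no other desmosome gene had a higher value in Cre-positive mouse 2 than in mouse 1. Dimmer probe sets of Dsp, Dsg2, Dsc2 and Pkp2 did. Of the 9 squamous epithelium markers on the array, 6 lay at the floor in all arrays, among them Krt13, Krt14 and Trp63. The list's summed intensity was 1328 and 455 in the Cre-positive mice, against 648 and 318 in the Cre-negative mice, and Sprr1a made up most of it. The part of such cells in the plakin values was not tested.

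By their brightest probe sets the desmosomal cadherins lay slightly higher in both Cre-positive mice. Dsc2 measured log2 12.54 and 12.38 in them, against 12.22 and 12.29 in the Cre-negative mice, a difference of 0.20 (SE 0.10, 95% interval -0.09 to 0.50, limma adjusted p = 0.535). A second Dsc2 probe set gave 0.07, and there the groups overlapped. Dsg2 differed by 0.19 (95% interval -0.17 to 0.55) by its brightest probe set, also without overlap. Of its 5 other probe sets, 3 gave 0.15 to 0.26 and 2 gave -0.30 and -0.71. These last 2 were highest in Cre-negative mouse 2.

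The armadillo proteins of the desmosome overlapped between groups. Jup encodes plakoglobin, which serves in both desmosomes and adherens junctions. It measured log2 11.40 and 10.63 in the Cre-positive mice, against 10.69 and 10.76 in the Cre-negative mice. Pkp3, a plakophilin, measured log2 10.41 and 9.51 in the Cre-positive mice, against 9.81 and 9.69 in the Cre-negative mice. In each, Cre-positive mouse 1 was the highest and Cre-positive mouse 2 the lowest of the 4. Their differences were 0.30 (95% interval -0.58 to 1.17) and 0.21 (95% interval -0.81 to 1.24). Pkp2, its relative, differed by 0.19 (95% interval -0.66 to 1.04) with mouse 1 above mouse 2 in both groups. Of its 3 other probe sets above the filter, the brightest gave -0.10 and a much dimmer probe set 0.0059, so its probe sets differed in direction. The dimmest measured log2 4.53 and 3.22 in the Cre-positive mice, against 2.80 and 2.80 in the Cre-negative mice. Both Cre-negative mice lay at the floor and Cre-positive mouse 2 near it, so no size is given for that probe set.

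Epcam encodes an epithelial adhesion molecule that binds and stabilises claudin 7 and belongs to none of the 3 junctions. It measured log2 14.94 and 14.76 in the Cre-positive mice, against 14.67 and 14.69 in the Cre-negative mice. The groups did not overlap, and the difference of 0.17 (SE 0.11, 95% interval -0.16 to 0.50) did not pass (limma adjusted p = 0.583).

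The junction genes differed between the Cre-positive mice more than between the Cre-negative mice. Over the 30 genes the median gap was 0.29 between the Cre-positive mice and 0.08 between the Cre-negative mice. The corresponding gaps over all genes tested were 0.22 and 0.12. Of the 30, 23 were higher in Cre-positive mouse 1 than in mouse 2, where 41.2% of all genes tested were (43.4% above the 60th percentile, against 23 of 29 junction genes). Cre-positive mouse 1 lay farther from the Cre-negative mean than mouse 2 in 27 of 30 junction genes, against 67.6% of all genes tested. In 9 of 30 the Cre-positive mice lay on opposite sides of that mean, against 34.1% of all genes tested.

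The gap, by brightest probe sets, lay mostly one way in adherens junction and desmosome genes and both ways in claudins. Its median over the 12 adherens junction and desmosome genes was 0.51 between the Cre-positive mice and 0.07 between the Cre-negative mice, and over the 9 claudins it was 0.32 and 0.10. Against the Cre-negative mean, the median of the 12 genes was 0.54 in Cre-positive mouse 1 and 0.07 in mouse 2. In mouse 1, 12 of 12 lay above that mean, against 37.1% of all genes tested. In mouse 2, 8 of 12 did, against 40.5% of all genes tested. Claudins had medians of -0.10 and -0.09 in the same arrays, the first being the value of Cldn1 at the floor. Over all genes tested the medians were -0.07 and -0.04. By their medians, epithelial markers moved the same way as the adherens junction and desmosome genes (0.22 in Cre-positive mouse 1 and 0.03 in mouse 2). Not every marker did so, and 7 of 10 lay above the Cre-negative mean in each Cre-positive mouse. Cdx1 (-0.15 and -0.03) and Elf3 (-0.06 and -0.28) lay below it in both mice. Cdx2 ran the other way, at -0.05 in mouse 1 and 0.998 in mouse 2. S100a8 and S100a9 were also high in Cre-positive mouse 1 but lay below the Cre-negative mean in mouse 2 (-0.29 and -0.39). The part of epithelial content and of neutrophils in these values was not tested.

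**Figure D4:**
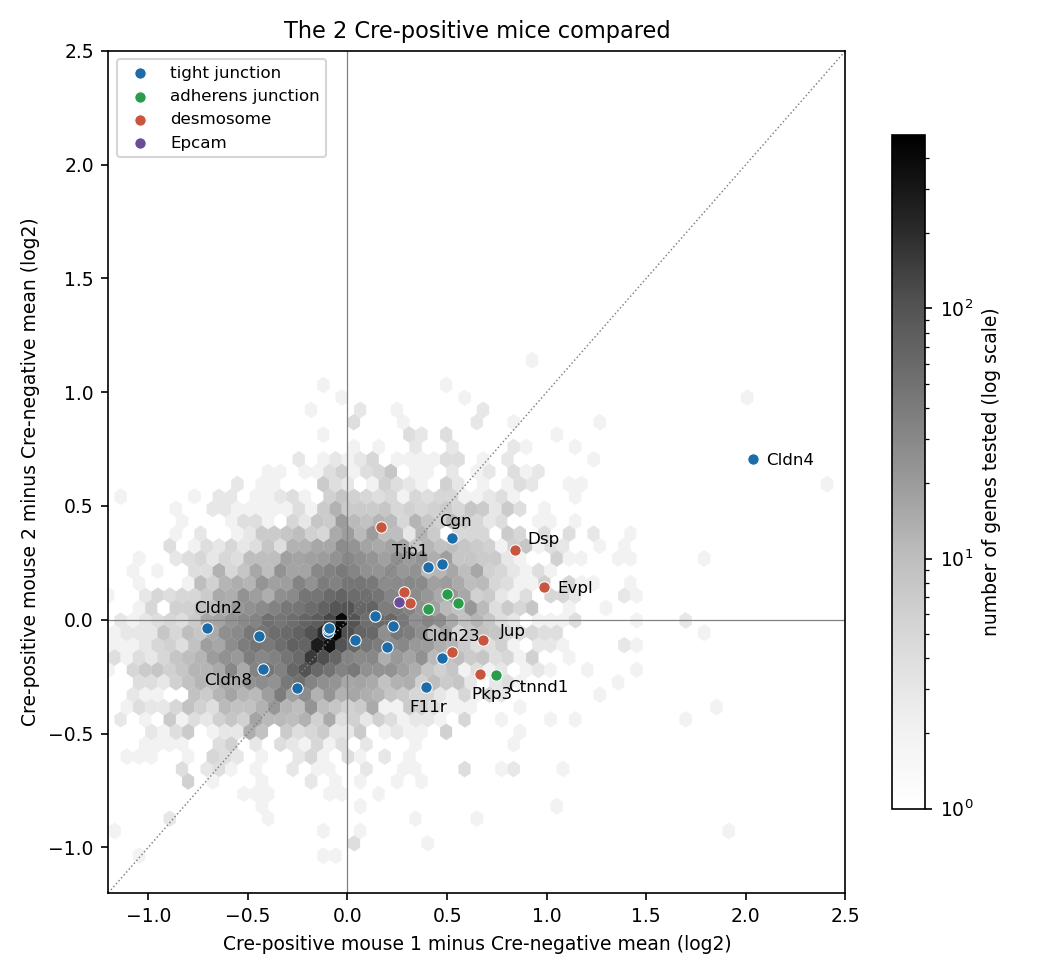
Each tested junction gene by its value in Cre-positive mouse 1 (horizontal axis) and Cre-positive mouse 2 (vertical axis), both as log2 difference from the mean of the Cre-negative mice, over all genes tested in grey (darker where more genes lie; genes beyond the axes are not drawn). The dotted line marks equal values. Red and green points, desmosome and adherens junction genes, lie right of 0 and, except for Ppl, below the dotted line.

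Further junction genes were examined as a list of 96 chosen by role, of which 69 were tested. In limma 0 passed the adjusted threshold, 4 stood higher and 3 stood lower with an unadjusted p under 0.05, and 41 of 69 had a higher mean, with a median of 0.05. The corresponding shares of all genes tested were 2.55% higher and 8.51% lower at that p and 38.5% with a higher mean, with a median of -0.05. The 4 higher genes lay well above the floor. Myh9, the heavy chain of the non-muscle myosin that pulls on junctional actin, measured log2 12.67 and 12.45 in the Cre-positive mice, against 12.05 and 12.11 in the Cre-negative mice (difference 0.48, limma adjusted p = 0.325). Afdn encodes afadin, which ties nectins to actin at adherens junctions, and it measured 10.74 and 10.41 in the Cre-positive mice, against 10.14 and 9.94 in the Cre-negative mice (difference 0.53, limma adjusted p = 0.428). Wnk4, a kinase that phosphorylates claudins, differed by 0.40, and Rock1, a kinase that activates myosin, by 0.26. In all 4 both Cre-positive mice lay above both Cre-negative mice, which an unadjusted p this small makes likely by itself. The 3 lower genes, Tmem47, Dsg1b and Dsc1, lay at or near the floor in all arrays (log2 2.83 to 3.41), which leaves no size to give.

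By role, junctional actomyosin genes had a higher mean in 8 of 9 tested, with a median of 0.26, and a median of 0.51 in Cre-positive mouse 1 and 0.12 in mouse 2. Myh14 and Mylk, picked after their values were seen, were the furthest apart among them, with differences of 0.85 and 0.71. Mylk, the myosin light chain kinase known to open tight junctions, measured log2 10.72 and 9.90 in the Cre-positive mice, against 9.73 and 9.47 in the Cre-negative mice (limma adjusted p = 0.524). Other adherens junction genes had a higher mean in 11 of 14 (median 0.09), among them Ctnnb1, the beta-catenin that binds E-cadherin (0.14). Tight junction and polarity scaffolds had a higher mean in 11 of 18 (median 0.14). Other claudins and tight junction membrane proteins had a higher mean in 4 of 11 (median -0.09), and other desmosome genes in 2 of 9 (median -0.08). The desmosome median is the value of Dsc1 at the floor, and Dsg1a, Dsg1b and Dsc3 also lay lower at or near it. Well above the floor, Perp (0.09) and Pkp4 (0.32) lay higher, Pkp1 (-0.10) lower, and Tmem30b (-0.0058) and Kazn (-0.018) nearly level. Among the other claudins and membrane proteins, Cldn9, higher, and Cldn11, Cldn22, Ildr2 and Tmem47, lower, also lay at or near the floor. Proteases and inhibitors that act on junction proteins had a higher mean in 5 of 8 (median 0.06).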

How the data were processed

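Colon epithelium RNA of each of the 4 mice was labelled with biotin by the Affymetrix protocol and measured on 1 array per mouse, per the labels' protocols. The deposited intensity values were made by the authors with GC-RMA, per the file headers and the submitters' processing notes. A second deposited table held, per the file headers, these intensities rounded, log2 values relative to a baseline, a fold change (a ratio) and a p-value. Its rounded intensities differed from the first table by at most 0.5, and its log2 values equalled log2 intensity minus the Cre-negative mean to within 0.000501.

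Of 45101 probe sets, 34945 had 1 gene in the array annotation, 932 had several and 9160 were unnamed. The brightest probe set, by its mean over arrays, stood for each of 18161 genes. A filter kept those brighter on average than 40% of probe sets (log2 2.81). Groups were compared with limma 3.58.1 in R 4.3.3 (lmFit, eBayes with an intensity trend), with 2 residual and 1.58 prior degrees of freedom, adjusted over 12649 genes. The fit was also run on simulated data with independent noise and larger differences than most seen here. No result here rests on that run. Precision is limited by the number of arrays.

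The junction genes and all lists were chosen with earlier results of these data known. By rule, values in each array were given for the 6 junction genes with the smallest unadjusted p on either side and for genes at the floor, and further genes of the listed roles were named at an unadjusted p under 0.05. Such values for other junction genes were added after their values were seen. Alternatives were other scalings, filters, probe set summaries, variance models, a replicate block and leaving out each array.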

Additional observations from a re-analysis of the deposited data

How the results depend on the processing

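Under the 14 alternatives no junction gene passed the adjusted threshold (smallest adjusted p 0.113), and 20 of 30 tested genes kept the direction of their difference wherever they were tested. The count of junction genes with a higher mean was 14 to 23 when 1 mouse was left out, lowest without Cre-positive mouse 1. The count at an unadjusted p under 0.05 was 0 to 16, being 0 without either Cre-negative mouse and highest without Cre-positive mouse 2, where the fit assumes that the lone mouse varies like the others and 26.6% of all genes tested were at that level, against 11.1% with all 4 mice. The median of all junction genes was -0.032 to 0.35, that of tight junction genes -0.042 to 0.14. Single-gene differences that turned sign on leaving out 1 mouse were Cldn3 (-0.088 to 0.038), Cldn7 (-0.12 to 0.20), Cldn23 (-0.38 to 0.68), F11r (-0.29 to 0.39), Tjp3 (-0.028 to 0.23), Ctnnd1 (-0.24 to 0.75), Jup (-0.089 to 0.68), Pkp2 (-0.14 to 0.52) and Pkp3 (-0.24 to 0.66). Cldn3 also turned with quantile normalization (0.0030), and Dsg2 with the mean of all probe sets (-0.033). The causes were not tested. Arrays of the same number deviated together (correlation 0.424 over genes tested), but the labels do not say that a number marks a shared batch, and 2 pairs do not settle it. With the replicate block, the 3 junction genes at an unadjusted p under 0.05 were Cldn4 (0.0304), Cgn (0.0320) and Dsp (0.0435), while Tjp1 (0.0606) and Cldn1 (0.0701) were no longer at that level, 0 passed after adjustment, and every difference and median was unchanged by construction.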
